A study of Mus musculus with 8 samples.

Results

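Heterochromatin is the compacted, largely silent part of the genome, and 10 genes that build or read it were followed across mouse cell types before and after cell fusion. They were selected by symbol from the 24354 genes listed and were all found: Trim28, Setdb1, Ehmt1, Ehmt2, Suv39h1, Atrx, Daxx, Cbx1, Cbx3, and Cbx5. In this pathway, zinc finger proteins bind retroelement sequences and recruit TRIM28, which brings in the H3K9 methyltransferase SETDB1. EHMT1 and EHMT2 (GLP and G9a) act as a pair that writes H3K9me1 and H3K9me2 in euchromatin, SUV39H1 writes H3K9me3 at pericentric repeats, and the HP1 proteins encoded by Cbx1, Cbx3, and Cbx5 bind methylated H3K9. ATRX, a chromatin remodeler, and DAXX, a histone chaperone, deposit the variant H3.3 at repeats and telomeres. In ESCs this machinery is known to hold endogenous retroviruses silent.

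The libraries numbered 8, with 2 for each of 4 cell types. The ESC line was wild-type E14, kept in serum with LIF. NSCs were neural stem cells of the double-transgenic OG2+/-/ROSA26+/- background, which carries GFP driven by the distal enhancer of Oct4 and ubiquitous lacZ, and were kept with EGF and FGF2 on gelatin. EPSCs were a wild-type extended pluripotent stem cell line of the C57BL/6 strain at passage 15, and hybrid cells were a line at passage 10 made by PEG fusion of EPSCs with those NSCs and labelled tetraploid. EPSCs and hybrid cells shared N2B27 medium to which minocycline hydrochloride, dimethindene maleate, CHIR99021, and human LIF were added. EPSCs and hybrid cells were grown on C3H mouse embryonic fibroblasts and ESCs on inactivated fibroblasts whose strain is not given in the sources used here, so RNA of these feeder cells could be present. Each group was 1 line, and the spread between its libraries is not a spread between derivations or fusions. The question was whether hybrid cells lay at the NSC level or at that of the pluripotent partner, and how EPSCs differed from ESCs. FPKM does not separate transcripts of the NSC copies from those of the EPSC copies in a hybrid cell. Medium, feeder cells, and ploidy differed between hybrid cells and NSCs, and line and medium between EPSCs and ESCs. These cannot be told apart from fusion or cell state.

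Values are FPKM, fragments scaled by transcript length and by library. Levels of different genes can be set side by side, but trends with length and GC content remained, as given below. The depth derived from the steps of the FPKM values was 22.1 to 32.6 per library in units of 1000000 fragments. A transcript of 2 kb that gives 3 fragments would be listed at 0.046 to 0.068 FPKM, which covers counting error only. The 10 genes lay far above it, from 8.07 to 627 FPKM in single libraries, with at least 602 fragments each. All 6 pluripotency markers were above 1 FPKM in the ESC, EPSC, and hybrid libraries, and all 6 neural markers were above 1 FPKM in NSCs. The neural markers summed to 3245 to 3316 FPKM in NSCs and to 7.47 to 7.96 in hybrid cells. The 8 fibroblast markers summed to 10.9 to 12.1 FPKM in ESCs and 0.978 to 1.17 in NSCs. In EPSCs they summed to 80.7 to 83.9, and in hybrid cells to 239 to 321. The set includes Postn, which the paper measured by qPCR as an EPSC-specific gene, so the sum need not be fibroblast RNA alone. Postn was at 11.5 and 10.5 FPKM in EPSCs and 41.1 and 31.1 in hybrid cells. All 8 were above 1 FPKM in EPSCs and hybrid cells, and 3 of them were above it in ESCs. Their part in the differences below was not tested.

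The promoters of 5 of the genes are shown because these had the widest range of group means of the 10 on the log2 scale and differ in base composition. Each sequence is the RefSeq stretch of 250 bases before a transcription start in GRCm38.p6, written 5′ to 3′ on the strand of the gene. Capitals mark matches on either strand to the GC box, spelled GGGCGG, to the CCAAT box, spelled as its name, or to the ETS core, spelled CCGGAAG. A pair of overlapping GC boxes appears as 1 capital run in Daxx.
Trim28, chr7:13023902-13024151, plus strand: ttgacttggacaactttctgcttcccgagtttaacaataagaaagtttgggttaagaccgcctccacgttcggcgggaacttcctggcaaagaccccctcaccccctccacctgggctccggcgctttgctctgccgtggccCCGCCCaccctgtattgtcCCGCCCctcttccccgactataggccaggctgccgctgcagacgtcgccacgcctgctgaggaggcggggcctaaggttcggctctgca
Suv39h1, chrX:8074761-8075010, minus strand: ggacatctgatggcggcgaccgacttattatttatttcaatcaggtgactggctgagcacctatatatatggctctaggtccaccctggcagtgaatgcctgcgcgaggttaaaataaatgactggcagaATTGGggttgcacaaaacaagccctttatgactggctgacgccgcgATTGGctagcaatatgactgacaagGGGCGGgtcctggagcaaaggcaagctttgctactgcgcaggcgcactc
Atrx, chrX:105929373-105929622, minus strand: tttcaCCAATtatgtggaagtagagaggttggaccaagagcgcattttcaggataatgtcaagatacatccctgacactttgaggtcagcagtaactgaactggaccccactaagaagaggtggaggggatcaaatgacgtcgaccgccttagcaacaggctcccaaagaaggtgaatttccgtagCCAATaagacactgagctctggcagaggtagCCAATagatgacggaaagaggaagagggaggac
Daxx, chr17:33909195-33909444, plus strand: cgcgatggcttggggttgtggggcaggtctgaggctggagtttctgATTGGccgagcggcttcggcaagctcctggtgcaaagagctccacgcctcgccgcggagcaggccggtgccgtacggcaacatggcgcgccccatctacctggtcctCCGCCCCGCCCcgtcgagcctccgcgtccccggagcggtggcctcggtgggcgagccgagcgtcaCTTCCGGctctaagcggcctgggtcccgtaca
Cbx1, chr11:96788885-96789134, plus strand: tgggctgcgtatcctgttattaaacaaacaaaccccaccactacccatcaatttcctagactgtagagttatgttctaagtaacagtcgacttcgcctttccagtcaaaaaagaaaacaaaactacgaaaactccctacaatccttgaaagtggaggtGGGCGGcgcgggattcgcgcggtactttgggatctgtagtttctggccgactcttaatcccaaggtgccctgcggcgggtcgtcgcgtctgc

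All 10 genes had at least 1 such window, 16 in all, of which 1 per gene is shown. A GC box was in 14 of the 16 windows and in 9 of the 10 genes, against 32.7% of all 32851 windows of this length. Atrx was the exception. Its window had 3 CCAAT boxes, 6 CpG dinucleotides, and a GC content of 48.4%, the lowest of the 16 windows. The medians of all windows were 6 CpG dinucleotides and a GC content of 52.4%. A CCAAT box was in 5 of the 16 windows (33.8% of all windows). An ETS core was in 4, all of Setdb1 and Daxx (6.91% of all windows). The windows of Daxx overlap each other, so the same GC box or ETS core was counted in several of them. The TATA box, spelled TATAAA, was in no window of the 10 genes and in 12.4% of all windows. The NRF1 motif (0.782% of all windows) and the cAMP response element, spelled TGACGTCA (1.55%), were in none of them either. The transcripts themselves ranged in GC content from 38.7% for Cbx3 and 39.5% for Atrx to 59.6% for Trim28 and 60.8% for Ehmt2.

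The genes did not move as a block. Hybrid cells exceeded NSCs in Trim28, Atrx, Daxx, and Cbx1 (4 genes, where 44.5% of all tested genes were higher), whereas Ehmt1, Ehmt2, Suv39h1, Cbx5, and, by a small margin, Setdb1 were lower (5 genes, where 42% of all were lower). In EPSCs, the levels of 8 genes differed from NSCs (86.2% of all tested genes), and for these the hybrid means lay near the EPSC level. Between EPSCs and ESCs, Atrx, Cbx1, Cbx3, and Cbx5 were higher in EPSCs (33.7% of all tested genes) and the other 6 were lower (27.3% of all). Of these calls, Trim28 and Cbx5 lost theirs after correction for GC content of transcripts, and Daxx after correction for GC content and length. Differences were tested with limma on log2(FPKM + 1), with Benjamini-Hochberg adjustment over the 13239 genes whose mean reached 1 FPKM in some group. A log2 fold change is given ± SE on this scale, which understates the change of low genes. In such bulk libraries, fewer cells of a type and less RNA per cell cannot be told apart.

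**Figure D1:**
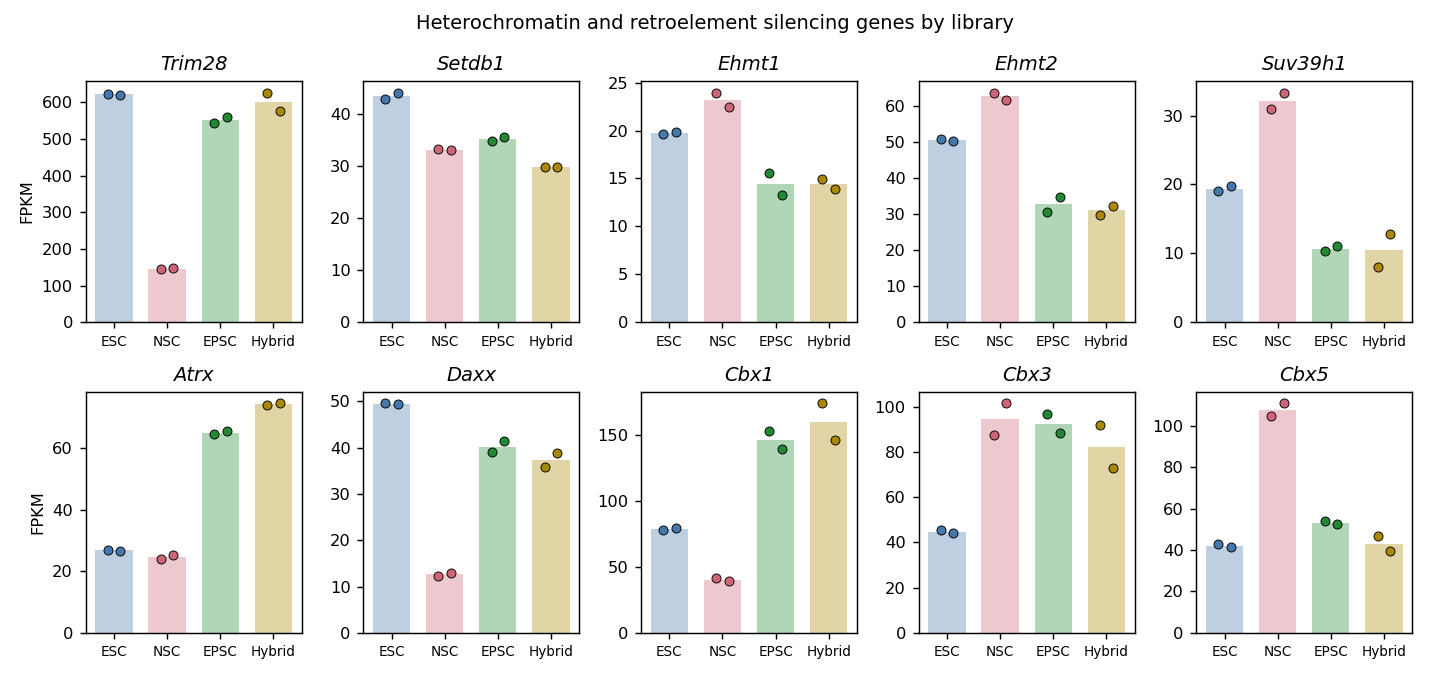
FPKM of the 10 genes in each library. Bars are group means of 2 libraries and points are single libraries, and each panel has its own axis from 0. Trim28 and Daxx were lowest in NSCs and Cbx5 highest there, while Atrx was at least 64.6 FPKM in every EPSC and hybrid library and at most 27.0 in every ESC and NSC library.

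Trim28, the scaffold of the pathway (7:13024152-13031032, plus strand, GRCm38.p6), was its most abundant transcript in every group. Its level was 623 and 621 FPKM in ESCs, 145 and 147 in NSCs, 545 and 559 in EPSCs, and 627 and 576 in hybrid cells. It ranked 126th of all genes in ESCs, 425th in NSCs, 157th in EPSCs, and 156th in hybrid cells. The NSC libraries stood far below all others, and the ESC libraries lay inside the range of the hybrid libraries. Hybrid cells exceeded NSCs by 2.03 ± 0.06 (limma, adjusted p = 3.21e-08), a ratio of means of 4.12, and by 1.31 under quantile normalization (adjusted p = 4.04e-07). Against EPSCs the difference was 0.12 ± 0.06 (limma, adjusted p = 0.112). Over all alternatives it ran from -0.02 to 0.18 and its adjusted p from 0.0417 to 0.754, so the call depended on the processing. Against ESCs the difference was -0.05 ± 0.06 (adjusted p = 0.464). The difference from ESCs depended on the processing, since it was -0.34 under quantile normalization (adjusted p = 0.00132) and 0.18 after correction for GC content and transcript length (adjusted p = 0.0441), within a range of 0.00132 to 0.875 over all alternatives.

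Setdb1, the H3K9me3 writer recruited by TRIM28 (3:95323525-95357202, minus strand), varied least of the 10 genes. It was measured at 43.0 and 44.2 FPKM in ESCs, 33.3 and 33.1 in NSCs, 34.9 and 35.6 in EPSCs, and 29.8 and 29.9 in hybrid cells. No libraries of different groups overlapped, and the highest group mean was 1.46 times the lowest. Hybrid cells fell below EPSCs (-0.23 ± 0.05, limma adjusted p = 0.00748) and below NSCs (-0.15 ± 0.05, adjusted p = 0.0202), so that its mean lay below those of both fusion partners. The difference from EPSCs did not pass when limma was fitted to these 2 groups alone (adjusted p = 0.064), within a range of 0.00585 to 0.064 over all alternatives. Against ESCs it was lower by -0.30 ± 0.05 in EPSCs (adjusted p = 0.00137) and by -0.53 ± 0.05 in hybrid cells (adjusted p = 7.22e-05). The difference from NSCs did not pass without NSC replicate 1 (adjusted p = 0.0617) and turned to 0.23 after correction for GC content and transcript length (adjusted p = 0.00265). Over all alternatives the adjusted p of this difference from NSCs ranged from 6.25e-06 to 0.0617. The gene's span overlaps Cers2, and the strand setting of the counting is not given in the sources used here.

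The ratio of scaffold to writer differed between groups. Trim28 over Setdb1 was 14.5 and 14.1 in ESCs, 4.35 and 4.45 in NSCs, 15.6 and 15.7 in EPSCs, and 21.1 and 19.3 in hybrid cells. The NSC ratio was the lowest and the hybrid ratio the highest, with no overlap of groups. This and the other ratios are given as descriptions, with no test and no correction for GC content or length.

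The methyltransferase genes Ehmt1 (2:24790769-24919643, minus strand), Ehmt2 (17:34898463-34914073, plus strand), and Suv39h1 (X:8061171-8074760, minus strand) shared one order, with NSCs above ESCs and both above EPSCs and hybrid cells. Ehmt1 was at 19.6 and 19.9 FPKM in ESCs, 24.0 and 22.4 in NSCs, 15.5 and 13.3 in EPSCs, and 15.0 and 13.9 in hybrid cells. Ehmt2 was at 50.8 and 50.2 FPKM in ESCs, 63.6 and 61.5 in NSCs, 30.6 and 34.6 in EPSCs, and 29.7 and 32.2 in hybrid cells. Suv39h1 was at 19.02 and 19.71 FPKM in ESCs, 30.9 and 33.3 in NSCs, 10.31 and 11.03 in EPSCs, and 8.07 and 12.8 in hybrid cells. For all 3 genes the EPSC and hybrid libraries overlapped, and the NSC libraries were above every other library. For Ehmt1 the difference of ESCs from NSCs was small (-0.22 ± 0.08, limma adjusted p = 0.0391). It turned to 0.19 after correction for GC content and length. The hybrid libraries differed most for Suv39h1, with a coefficient of variation of 32.0%.

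Relative to NSCs, hybrid cells were lower by -0.65 ± 0.08 for Ehmt1 (limma, adjusted p = 0.000161), by -0.99 ± 0.07 for Ehmt2 (adjusted p = 5.01e-06), and by -1.57 ± 0.17 for Suv39h1 (adjusted p = 5.93e-05). Suv39h1 thus had the widest fall of the 3, with NSCs at 3.08 times the hybrid mean. Between hybrid cells and EPSCs the differences were 0.00 ± 0.08, -0.07 ± 0.07, and -0.06 ± 0.17 in the same order, and none passed (adjusted p = 0.98, 0.461, and 0.803). Without hybrid replicate 2, however, Suv39h1 was lower in hybrid cells by -0.36 (adjusted p = 0.0136), and without hybrid replicate 1 it was at 0.24, so its relation to EPSCs rests on single libraries. Over all alternatives this adjusted p ranged from 0.0136 to 0.966.

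EPSCs lay below ESCs for the same 3 genes, by -0.43 ± 0.08 for Ehmt1 (limma, adjusted p = 0.00339), -0.62 ± 0.07 for Ehmt2 (adjusted p = 0.0003), and -0.80 ± 0.17 for Suv39h1 (adjusted p = 0.00515). The partners Ehmt2 and Ehmt1 kept a similar proportion, with a ratio of 2.59 and 2.52 in ESCs, 2.65 and 2.74 in NSCs, 1.97 and 2.60 in EPSCs, and 1.98 and 2.32 in hybrid cells. The EPSC range held both ESC ratios and both hybrid ratios, and the NSC ratios lay just above all others.

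Atrx (X:105797615-105929372, minus strand) and Daxx (17:33909404-33915590, plus strand), which encode partners of one complex, followed different orders. Atrx was at 27.0 and 26.8 FPKM in ESCs, 24.2 and 25.3 in NSCs, 64.6 and 65.8 in EPSCs, and 74.0 and 74.7 in hybrid cells. Daxx was at 49.6 and 49.3 FPKM in ESCs, 12.4 and 13.0 in NSCs, 39.1 and 41.4 in EPSCs, and 35.7 and 38.9 in hybrid cells. For Atrx, ESCs and NSCs were both far below the other 2 groups, and for Daxx NSCs alone were. ESCs exceeded NSCs in Daxx by 1.88 ± 0.06 (limma, adjusted p = 8.53e-08). In Atrx this difference was 0.12 ± 0.05 (adjusted p = 0.0567), and it depended on the processing, from -0.42 with scaling to the same sum (adjusted p = 0.000207) to 0.77 after correction for GC content and length (adjusted p = 2.51e-06). Relative to ESCs, EPSCs were higher in Atrx by 1.25 ± 0.05 (adjusted p = 3.47e-06), and hybrid cells by 1.43 ± 0.05 (adjusted p = 1.58e-06). Daxx was lower than in ESCs, by -0.29 ± 0.06 in EPSCs (adjusted p = 0.00553) and by -0.40 ± 0.06 in hybrid cells (adjusted p = 0.00109).

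Against NSCs, hybrid cells were higher by 1.55 ± 0.05 for Atrx (limma, adjusted p = 6.3e-08) and by 1.48 ± 0.06 for Daxx (adjusted p = 2.74e-07). Against EPSCs, Atrx was higher by 0.19 ± 0.05 (adjusted p = 0.019), with both hybrid libraries above both EPSC libraries, and Daxx was at -0.11 ± 0.06 (adjusted p = 0.215). The difference of Atrx missed the threshold without EPSC replicate 1 (adjusted p = 0.0703) and rose to 0.37 after correction for GC content and length. Its adjusted p over all alternatives ran from 0.00124 to 0.076. Daxx passed after that correction (-0.16, adjusted p = 0.0454), and without single hybrid libraries it was at -0.17 and -0.05 (adjusted p = 0.0884 and 0.614), within a range of 0.0382 to 0.614 over all alternatives. Atrx over Daxx was 0.545 and 0.543 in ESCs and 1.95 in both NSC libraries. It was 1.65 and 1.59 in EPSCs and 2.07 and 1.92 in hybrid cells. By FPKM, ESCs alone thus held more Daxx than Atrx. The longest transcripts differ, with 10275 nucleotides and 39.5% GC for Atrx and 2673 nucleotides and 56.3% GC for Daxx. The ratio was not corrected for this.

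The HP1 genes gave the clearest change of composition. Cbx1, which encodes HP1β (11:96788680-96808982, plus strand), was at 78.0 and 79.3 FPKM in ESCs, 41.6 and 39.4 in NSCs, 153 and 139 in EPSCs, and 174 and 147 in hybrid cells. Cbx5, which encodes HP1α (15:103191546-103239904, minus strand), was at 42.9 and 41.3 FPKM in ESCs, 105 and 111 in NSCs, 54.2 and 52.4 in EPSCs, and 46.7 and 39.6 in hybrid cells. Cbx3, which encodes HP1γ (6:51470154-51483704, plus strand), was at 45.4 and 44.0 FPKM in ESCs, 87.5 and 102 in NSCs, 96.5 and 88.4 in EPSCs, and 91.8 and 72.7 in hybrid cells. Cbx1 was lowest in NSCs, Cbx5 was highest there, and Cbx3 was low in ESCs alone. RefSeq lists 6 pseudogenes of Cbx3, none with a row of its own in the table, so fragments shared with such copies make the level of Cbx3 uncertain, and Cbx1 overlaps Gm11517.

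In hybrid cells Cbx1 exceeded NSCs by 1.96 ± 0.09 (limma, adjusted p = 3.71e-07) and Cbx5 was lower by -1.31 ± 0.08 (adjusted p = 1.95e-06), while Cbx3 was at -0.20 ± 0.12 (adjusted p = 0.139). The call for Cbx3 depended on scaling, since it was lower by -0.82 when each library was scaled to the same sum (adjusted p = 0.000153), within a range of 0.000153 to 0.742 over all alternatives. Against EPSCs, Cbx5 was lower by -0.30 ± 0.08 (adjusted p = 0.0197), and Cbx1 and Cbx3 were at 0.13 ± 0.09 and -0.17 ± 0.12 (adjusted p = 0.274 and 0.265). Hybrid replicate 2 was the lower library for all 3 genes, and without it Cbx5 missed the threshold (adjusted p = 0.0554) and Cbx1 was higher than in EPSCs by 0.25 (adjusted p = 0.0365). Without hybrid replicate 1, Cbx3 was lower than in EPSCs by -0.34 (adjusted p = 0.0375). For Cbx5 the adjusted p over all alternatives ran from 0.00443 to 0.0934, and for Cbx1 from 0.0365 to 0.975, and for Cbx3 from 0.0375 to 0.961.

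EPSCs exceeded ESCs in all 3 HP1 genes, by 0.88 ± 0.09 for Cbx1 (limma, adjusted p = 0.000148), 1.03 ± 0.12 for Cbx3 (adjusted p = 0.000272), and 0.33 ± 0.08 for Cbx5 (adjusted p = 0.00909). The call for Cbx5 was lost after correction for GC content (0.13, adjusted p = 0.131) and after correction for GC content and length (0.05, adjusted p = 0.508). Hybrid cells exceeded ESCs in Cbx1 by 1.01 ± 0.09 (adjusted p = 6.04e-05) and in Cbx3 by 0.86 ± 0.12 (adjusted p = 0.000511), and Cbx5 was at 0.03 ± 0.08 (adjusted p = 0.777).

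Since FPKM is per length, the HP1 genes can be read as shares of their sum, here without correction for GC content and length. The longest transcript had 8803 nucleotides for Cbx5 and 2377 for Cbx1. In hybrid cells against NSCs, that correction moved Cbx5 from -1.31 to -0.77, and Cbx1 kept its direction. Cbx1 made up 46.9% and 48.2% in ESCs, 17.8% and 15.6% in NSCs, 50.4% and 49.7% in EPSCs, and 55.7% and 56.6% in hybrid cells. Cbx5 made up 25.8% and 25.1% in ESCs, 44.8% and 44.1% in NSCs, 17.8% and 18.7% in EPSCs, and 14.9% and 15.3% in hybrid cells. By FPKM, NSCs thus had Cbx5 as their most abundant HP1 transcript and the 3 pluripotent groups had Cbx1. Cbx1 over Cbx5 was 3.74 and 3.70 in the hybrid libraries, close to each other although their summed HP1 level differed (313 and 259 FPKM). The sum itself was 166 and 165 FPKM in ESCs, 234 and 252 in NSCs, and 304 and 280 in EPSCs, so that the hybrid range held the EPSC libraries and lay above both NSC libraries. The order of NSCs and hybrid cells depended on the scaling. With every library scaled to an FPKM sum of 1000000, the sum of the HP1 genes was 563 and 606 in NSCs and 486 and 408 in hybrid cells, so the NSC libraries were then the higher ones.

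**Figure D2:**
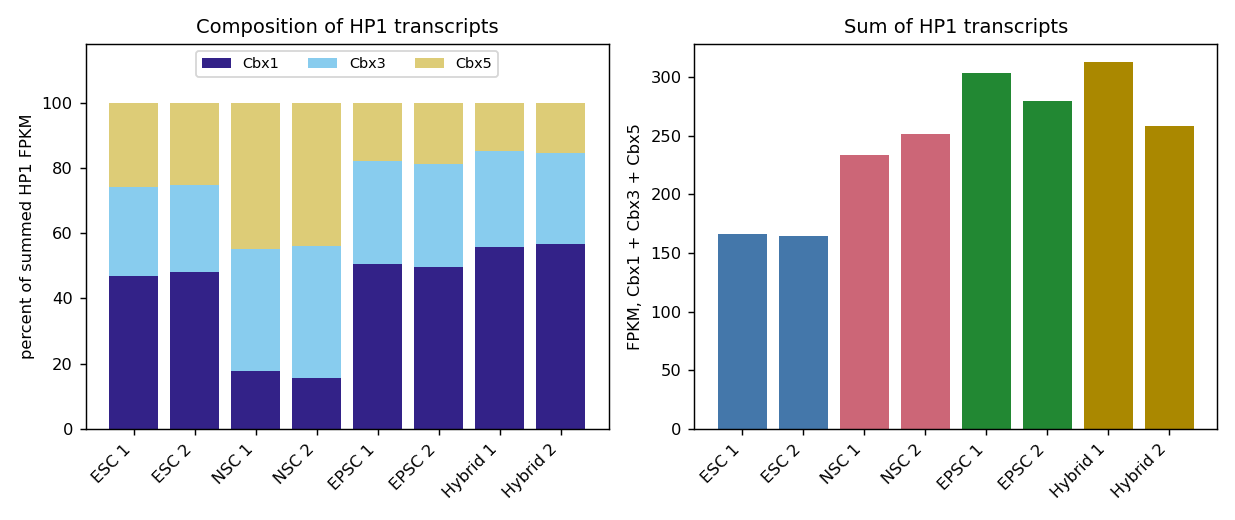
Left, percent of the summed FPKM of Cbx1, Cbx3, and Cbx5 that each gene takes in each of the 8 libraries. Right, that sum in FPKM. Cbx5 takes at least 44.1% in the NSC libraries and at most 25.8% in the other libraries, and the sum is lowest in ESCs.

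The counts of genes that passed limma have to be read against the share of all tested genes that did. Between hybrid cells and EPSCs, 3 of the 10 passed (Setdb1, Cbx5, and Atrx), where 44.4% of all tested genes passed. Of these, 1 was higher (22.5% of all) and 2 were lower (21.9% of all). When limma was fitted to these 2 groups alone, 0 of the 10 passed, where 2811 of 13239 genes did. In that fit 3 of the 10 had an unadjusted p under 0.05. Against NSCs, 9 of 10 passed for hybrid cells (86.5% of all), 8 for EPSCs (86.2%), and 9 for ESCs (84.7%). Against ESCs, 10 of 10 passed for EPSCs (61% of all) and 8 for hybrid cells (65.5%). The counts against NSCs are near their background. The full count for EPSCs against ESCs was above its background, with no test of the excess, and went to 8 after GC correction and to 7 after GC and length correction, where 8083 of 13170 genes passed. By the fold rule of the study's methods, taken as a group mean over 3 FPKM and a ratio of means over 3, Trim28, Cbx1, Atrx, and Suv39h1 passed between hybrid cells and NSCs (29% of all tested genes pass). Daxx, Cbx1, Trim28, and Suv39h1 passed between EPSCs and NSCs (28.8% of all), and Trim28 and Daxx between ESCs and NSCs (27.6% of all). None passed for hybrid cells against EPSCs (1.59% of all), EPSCs against ESCs (4.72% of all), or hybrid cells against ESCs (6.68% of all). The median log2 fold change of the 10 genes was -0.18 in hybrid cells against NSCs, where that of all tested genes was 0.06, and -0.23 in EPSCs against ESCs, where it was 0.04. Both depended on the processing. In EPSCs against ESCs the median of the 10 genes was -0.06 after GC correction and -0.04 after GC and length correction, and in hybrid cells against NSCs it was -0.79 with scaling to the same sum, -0.45 under quantile normalization, and -0.02 after GC and length correction. The median of all tested genes against NSCs was -0.51, 0.06, and 0.06 under these 3 in the same order.

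**Figure D3:**
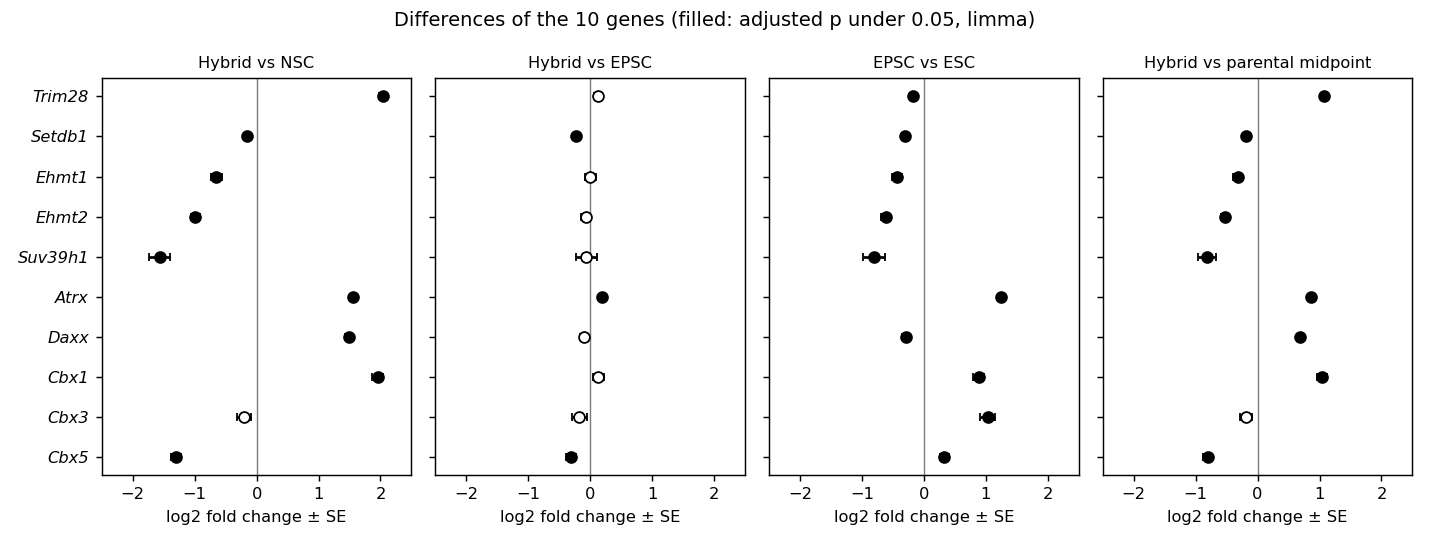
Log2 fold change ± SE of each gene in 4 comparisons, with filled points where limma's adjusted p was under 0.05 and open points where it was not. Trim28 and Cbx1 lie near 2 against NSCs, and all 10 genes lie between -0.30 and 0.19 against EPSCs.

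Before fusion, EPSCs exceeded NSCs in Trim28 by 1.91 ± 0.06, Cbx1 by 1.83 ± 0.09, Daxx by 1.59 ± 0.06, and Atrx by 1.36 ± 0.05, and were lower in Suv39h1 by -1.51 ± 0.17, Cbx5 by -1.004 ± 0.081, Ehmt2 by -0.92 ± 0.07, and Ehmt1 by -0.65 ± 0.08 (limma, highest adjusted p = 0.000157). These 8 genes kept their call under all alternatives, but some values moved widely. Ehmt1 ran from -1.27 to -0.26, Ehmt2 from -1.54 to -0.55, and Cbx5 from -1.62 to -0.58. Atrx ran from 0.77 to 1.65 and Daxx from 1.03 to 1.66. The position of the hybrid cells between their fusion partners was also given on the log2 scale, with NSCs at 0 and EPSCs at 1. Over the 8 genes that differed between EPSCs and NSCs, it ran from 0.934 for Daxx to 1.30 for Cbx5. Of the genes past the EPSC level, Atrx and Cbx5 differed from EPSCs by limma, and Trim28, Ehmt2, Suv39h1, and Cbx1 did not pass that test. Against the midpoint of the partners, 9 of the 10 genes differed, where 77.2% of all tested genes did. Trim28 and Cbx1 were above it by 1.08 ± 0.05 and 1.04 ± 0.08 (limma, adjusted p = 1.12e-06 and 1.14e-05), and Suv39h1 and Cbx5 were below it by -0.81 ± 0.15 and -0.81 ± 0.07 (adjusted p = 0.00153 and 2.61e-05). The lowest value of Trim28 over all alternatives was 0.64. Without hybrid replicate 1 Suv39h1 was at -0.51, and after GC and length correction Cbx5 was at -0.48 (limma, adjusted p = 0.000103). Cbx3 was at -0.19 ± 0.10 (adjusted p = 0.126). After GC and length correction 7 of the 10 differed from the midpoint, where 10222 of 13170 genes did. Setdb1 then went from -0.19 to -0.0016 (limma, adjusted p = 0.974) and Ehmt1 from -0.32 to -0.15 (adjusted p = 0.0971). All 10 differed under scaling to the same sum and under quantile normalization, where 10535 and 10101 of 13239 genes did. These comparisons share the hybrid, EPSC, and NSC libraries with those above.

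Differences between EPSCs and ESCs moved with the GC content of transcripts over all tested genes. With the genes divided into 5 equal bins of GC content, the median log2 fold change was 0.21 in the lowest bin and -0.16 in the highest. The 4 genes higher in EPSCs (Cbx3, Atrx, Cbx5, and Cbx1) had the lowest GC contents of the 10, from 38.7% to 44.9%. After a correction for GC content, Trim28 was at 0.04 in place of -0.17 (adjusted p = 0.619 in place of 0.0298) and lost its call, as Cbx5 did. After a correction for GC content and length, Daxx lost it too (-0.13, adjusted p = 0.0659). Atrx (0.999), Cbx1 (0.71), Cbx3 (0.77), Setdb1 (-0.42), Ehmt1 (-0.45), Ehmt2 (-0.37), and Suv39h1 (-0.87) kept their direction and their call after the GC correction. The range of adjusted p over all alternatives was 0.00227 to 0.619 for Trim28, 0.00173 to 0.508 for Cbx5, and 0.00202 to 0.0659 for Daxx. Trim28 also missed the threshold without any single ESC, NSC, or EPSC library (adjusted p = 0.0523 to 0.119), and Cbx5 without ESC replicate 2 (adjusted p = 0.0638).

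Differences from NSCs moved with transcript length and, less widely, with GC content. From the lowest to the highest bin of GC content the median went from 0.18 to -0.04 in EPSCs against NSCs. In ESCs against NSCs it went from -0.04 to 0.12. In hybrid cells against NSCs the median log2 fold change was 0.56 in the shortest of 5 equal bins of length and -0.42 in the longest, and in ESCs against NSCs it was 0.45 and -0.52. For EPSCs against NSCs the medians were 0.54 and -0.36. The correction for GC content and length moved 4 called values of hybrid cells against NSCs by over 1.5 times. Ehmt1 went from -0.65 to -0.28 (limma, adjusted p = 0.015), Ehmt2 from -0.99 to -0.62 (adjusted p = 1.97e-05), and Cbx5 from -1.31 to -0.77 (adjusted p = 9.16e-06), and Setdb1 turned to 0.23 as given above. Cbx3 gained a call (-0.33, adjusted p = 0.0206). Trim28 (2.18), Atrx (2.02), Cbx1 (1.78), Daxx (1.36), and Suv39h1 (-1.66) kept their direction and their call. The part of length in these differences was not tested. Scaling to the same sum also moved hybrid cells against NSCs by over 1.5 times in 5 called genes, to 0.95 for Atrx, 0.91 for Daxx, -0.76 for Setdb1, -1.27 for Ehmt1, and -1.62 for Ehmt2 (limma, highest adjusted p = 9.64e-06).

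**Figure D4:**
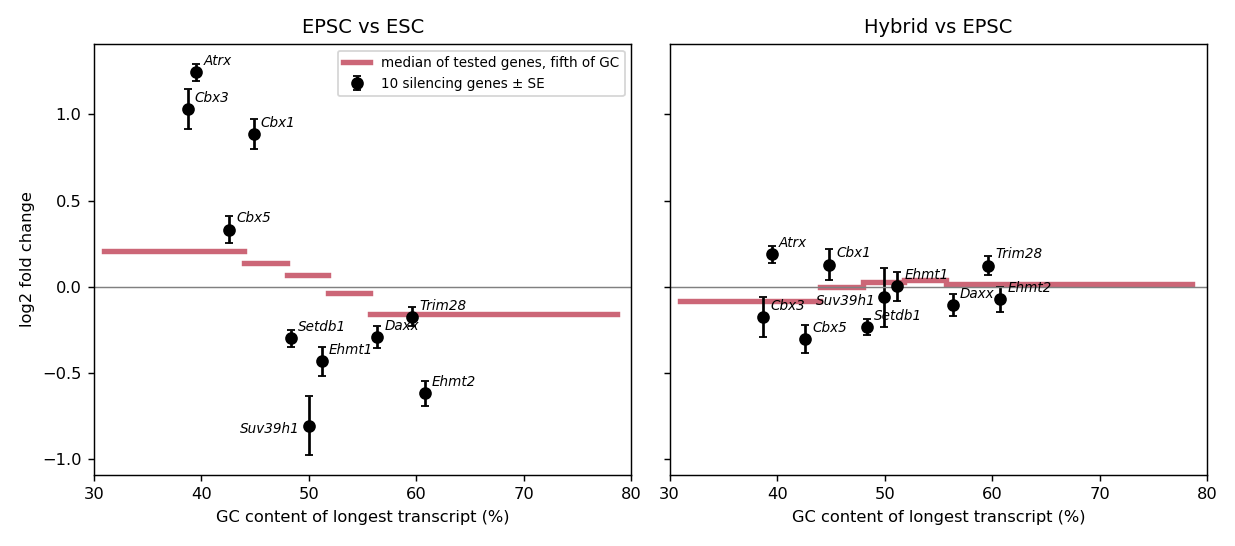
Log2 fold change ± SE of the 10 genes against the GC content of their longest transcript, with the median of all tested genes in each of 5 bins of GC content as a red line. In EPSCs against ESCs the medians fall from 0.21 to -0.16, whereas in hybrid cells against EPSCs they stay between -0.08 and 0.04.

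Other genes of the pathway were read from lists of partners, recruiters, demethylases, and further chromatin genes. Each count of a list has to be read against the share of all tested genes, which was 44.5% higher and 42% lower for hybrid cells against NSCs, 22.5% and 21.9% for hybrid cells against EPSCs, and 33.7% and 27.3% for EPSCs against ESCs. For counts after scaling to the same sum, 11638 of 13239 genes passed in hybrid cells against NSCs, and 34.5% of these calls were higher. Without that scaling 51.5% of 11449 calls were higher. Of 7 partners and further writers of H3K9 methylation, 5 were higher and 1 lower in the hybrid line than in NSCs. After scaling to the same sum 1 was higher and 3 were lower. Atf7ip2, which encodes a relative of the SETDB1 cofactor ATF7IP, rose from 0.164 and 0.0875 FPKM in NSCs to 7.98 and 7.16 in hybrid cells (2.93 ± 0.10, limma adjusted p = 1.08e-07). Against EPSCs, 2 of the 7 were higher and 3 lower, with Zfp644, a zinc finger partner of the EHMT pair, at -0.67 ± 0.06 (adjusted p = 0.00035). Against ESCs, EPSCs were higher for 4 and lower for 1. Atf7ip rose by 0.72 ± 0.06 (adjusted p = 6e-05), Prdm2 by 0.70 ± 0.07 (adjusted p = 0.000108), and Suv39h2, the paralog of Suv39h1, by 0.61 ± 0.07 (adjusted p = 0.000306). Suv39h2 was at 7.45 and 6.89 FPKM in ESCs and 11.6 and 11.3 in EPSCs, the direction opposite to that of Suv39h1.

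Among 6 genes of the HUSH complex and related silencers, 5 were higher and 1 lower in hybrid cells relative to NSCs (44.5% and 42% of all tested genes). With scaling to the same sum 3 were higher and 1 lower, where 34.5% of all calls were higher. Resf1, which encodes a protein needed for retroelement silencing in ESCs and is listed as 2810474O19Rik, rose from 4.55 and 4.72 FPKM in NSCs to 53.7 and 57.7 in hybrid cells (3.33 ± 0.10, limma adjusted p = 4.69e-08). Morc3 rose from 10.4 and 11.2 to 63.0 and 58.5 FPKM (2.39 ± 0.06, adjusted p = 2.58e-08). Pphln1, the periphilin subunit of HUSH, fell from 27.1 and 29.6 to 8.48 and 8.66 FPKM (-1.62 ± 0.07, adjusted p = 2.75e-07). The subunits of HUSH thus differed in direction, since Mphosph8 was higher by 0.79 ± 0.08 (adjusted p = 2.59e-05), a call lost with scaling to the same sum (0.19, adjusted p = 0.0514). Against EPSCs, 3 of the 6 were lower, Pphln1 by -0.54 ± 0.07 (adjusted p = 0.00114) and Mphosph8 by -0.38 ± 0.08 (adjusted p = 0.00631) among them, and 2 were higher.

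Of 8 relatives of TRIM28 and sequence-specific recruiters, 7 were matched and 6 were tested. Among the tested genes 4 were higher and 1 lower in the hybrid line than in NSCs. Scaling to the same sum gave 3 higher and 1 lower, where 34.5% of all calls were higher. Zfp809, which directs TRIM28 to the primer binding site of murine leukaemia viruses, was at 14.6 and 15.9 FPKM in ESCs, 6.19 and 7.89 in NSCs, 17.8 and 20.8 in EPSCs, and 36.4 and 34.6 in hybrid cells. Its hybrid level exceeded NSCs by 2.19 ± 0.12 (limma, adjusted p = 9.22e-07) and EPSCs by 0.85 ± 0.12 (adjusted p = 0.00156), and so lay above both partners. Trim24 rose over NSCs by 1.75 ± 0.06 (adjusted p = 1.17e-07) and was level with EPSCs (0.00 ± 0.06). Zfp932 was lower in hybrid cells than in EPSCs by -0.72 ± 0.07 (adjusted p = 0.000445), and Trim33 was higher in EPSCs than in ESCs by 0.66 ± 0.06 (adjusted p = 7.69e-05).

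Of 10 genes of H3.3 and its chaperones and of CAF-1, 6 were higher than in NSCs and 0 were lower, but 2 were higher and 7 lower after scaling to the same sum. Chaf1b, a subunit of the replication-coupled chaperone CAF-1, rose from 29.4 and 33.2 FPKM in NSCs to 87.5 and 90.8 in hybrid cells (1.48 ± 0.07, limma adjusted p = 3.87e-07). In EPSCs against ESCs, 4 of the 10 were higher and 3 lower, and Asf1b was at -0.67 ± 0.07 (adjusted p = 0.000163). Of 3 H4K20 methyltransferases, 1 was higher and 0 were lower in hybrid cells relative to NSCs (44.5% and 42% of all tested genes). With scaling to the same sum 0 were higher and 2 lower, where 34.5% of all calls were higher. The 1 gene was Kmt5b, which was then at -0.04 (adjusted p = 0.614). Kmt5c was lower in EPSCs than in ESCs by -0.73 ± 0.13 (adjusted p = 0.00259), from 41.5 and 38.4 to 21.3 and 26.3 FPKM.

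The list of genes classed as H3K9 demethylases held 10 genes, of which 9 were tested. Of these, 4 were higher and 4 lower in hybrid cells relative to NSCs (44.5% and 42% of all tested genes). What the encoded proteins act on in these cells was not measured. After scaling to the same sum, 2 were higher and 6 lower, where 34.5% of all calls were higher. Phf2 fell from 27.4 and 27.8 FPKM in NSCs to 2.22 and 2.12 in hybrid cells (-3.17 ± 0.11, limma adjusted p = 9.52e-08) and was between 1.98 and 2.69 in ESCs and EPSCs. Kdm3a rose from 24.0 and 23.5 to 66.0 and 57.5 FPKM (1.34 ± 0.08, adjusted p = 1.48e-06). Kdm1a, which encodes LSD1, was at 66.6 and 69.8 FPKM in EPSCs and 102 and 94.5 in hybrid cells (0.52 ± 0.06, adjusted p = 0.000763). Between EPSCs and ESCs, 1 of the 9 was higher and 1 lower, but 1 was higher and 4 lower under median-ratio scaling, under quantile normalization, and with the replicate block, 1 higher and 3 lower with scaling to the same sum, and 2 higher and 3 lower after GC and length correction. Kdm4b was at 6.85 and 6.60 FPKM in EPSCs against 18.9 and 18.3 in ESCs (-1.34 ± 0.07, adjusted p = 1.15e-05). Kdm7a was at 2.52 and 2.75 against 1.81 and 1.78 FPKM (0.38 ± 0.07, adjusted p = 0.00329), a call lost after GC and length correction (0.04, adjusted p = 0.693).

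Of 10 genes of heterochromatin remodelers and the nuclear lamina, 6 were higher and 3 lower in the hybrid line than in NSCs. Scaling to the same sum gave 5 higher and 5 lower, where 34.5% of all calls were higher. Hells, a remodeler needed for DNA methylation of repeats, rose from 24.9 and 27.7 to 170 and 147 FPKM (2.55 ± 0.08, limma adjusted p = 6.31e-08). Beside Hells and Chaf1b, all 7 genes of a list of S-phase genes (Mcm2 to Mcm7 and Pcna) were also higher in the hybrid line than in NSCs, by 0.73 to 1.33, and their part in these rises was not tested. With scaling to the same sum 6 of the 7 were higher, and Mcm4 was at 0.11 (adjusted p = 0.0773). Lbr, the lamin B receptor that tethers heterochromatin to the nuclear envelope, was higher by 1.30 ± 0.06 (adjusted p = 4.95e-07). Smchd1 fell below EPSCs by -0.68 ± 0.06 (adjusted p = 0.000349), while Adnp rose by 0.57 ± 0.10 (adjusted p = 0.00343). EPSCs were above ESCs for 7 of the 10 and below for 1 (33.7% and 27.3% of all tested genes). Scaling to the same sum gave 6 higher and 1 lower, where 7974 of 13239 genes passed. GC and length correction gave 6 higher and 2 lower, where 8083 of 13170 passed. Lmna was at 0.92 ± 0.07 (limma, adjusted p = 5.7e-05), Smchd1 at 0.70 ± 0.06 (adjusted p = 8.15e-05), and Lbr at 0.62 ± 0.06 (adjusted p = 0.000147). Lmna is also expressed by fibroblasts, whose markers had a larger sum in EPSCs than in ESCs, and their part in its level was not tested.

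**Figure D5:**
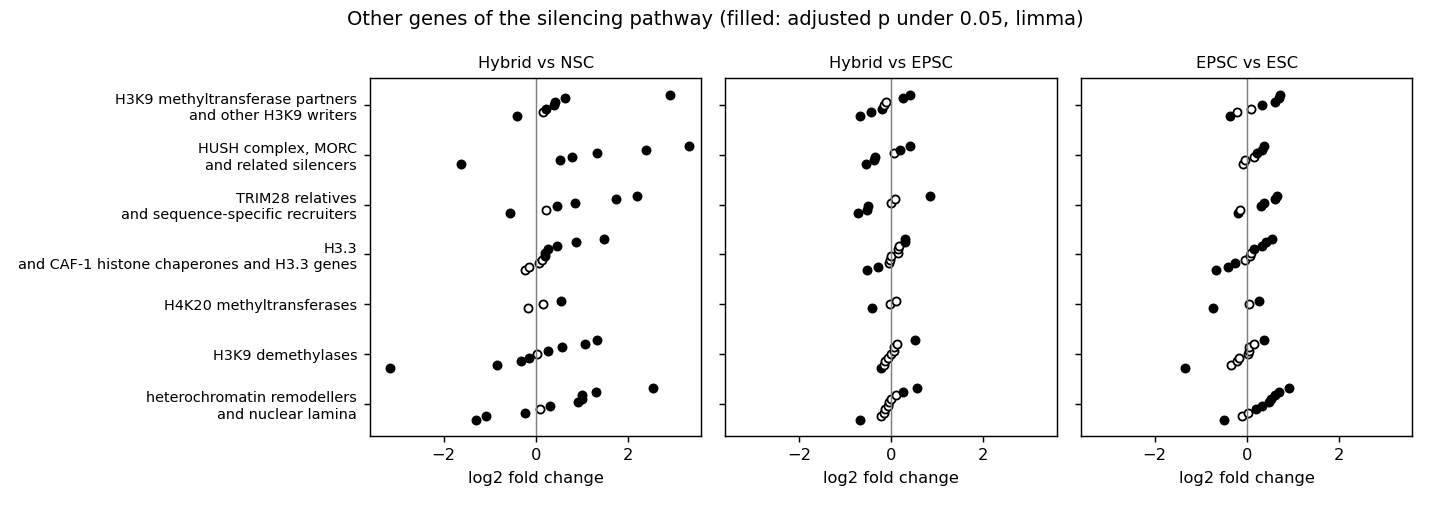
Log2 fold change of each tested gene in 7 lists of the pathway, in hybrid cells against NSCs, hybrid cells against EPSCs, and EPSCs against ESCs. Filled points passed limma at an adjusted p under 0.05. The widest differences are against NSCs, with Resf1 at 3.33 and Phf2 at -3.17.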

How the data were processed

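RNA was sequenced from 8 poly-A libraries (TruSeq Stranded mRNA), 2 each of ESCs, NSCs, EPSCs, and hybrid cells. Per the paper's methods and the submitters' processing notes, reads were aligned to mm10 with STAR 2.7.9a and quantified with Cuffnorm of Cufflinks 2.2.1, and the authors deposited FPKM per gene and library. The annotation, the strand setting, and the library normalization of Cuffnorm are not given in the sources used here. The labels assigned each column to its group, and the number of columns from other samples was 0.

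The genes whose mean reached 1 FPKM in any group (13239 of 24354) were tested on log2(FPKM + 1) with limma 3.58.1 in R 4.3.3 (lmFit, contrasts.fit, and trended eBayes), all 4 groups in one fit. The test was two-sided, with Benjamini-Hochberg adjustment and a threshold of 0.05, and was tested on simulated data. Figures and summaries used Python 3.11.15. The 2 libraries of a group came from 1 line, so p-values measure only the spread between these libraries, which may be technical. The depth was derived from the FPKM steps of 2328 genes with 1 transcript over 1500 nucleotides, taking fragments as 200 nucleotides long, and precision is limited to counting error. Positions and promoters came from RefSeq (GRCm38.p6, the build of mm10), and GC content and length came from GENCODE transcripts, which were found for 13170 of the tested genes.

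The 10 genes, the lists, and the tests were chosen with earlier results of these data known. Named beside the 10 genes were up to 3 genes per list and comparison, with the largest change among those that passed limma without overlap of libraries, the 5 genes nearest to Trim28, and the 5 nearest to the gene with the widest range. That gene was Trim28 itself, so Cbx1, the next widest, was taken. A gene that this rule names is not reported here. Alternatives covered scaling, pseudocount, filter, groups in the fit, trend, replicate block, each library left out, and the thresholds of the fold rule. Corrections for GC content and length, and the scaling of the summed HP1 level, were chosen after seeing the data.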

Additional observations from a re-analysis of the deposited data

How the results depend on the processing

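Of 1400 log2 fold changes of the 10 genes under 20 alternatives, 1307 kept their direction and their side of the threshold, 30 lost their call, 29 gained one, and 34 changed sign. The cause of these changes was not tested, except that fewer libraries or genes enter some alternatives by construction. For hybrid cells against EPSCs, the count of genes that passed went from 3 to 0 with only the groups compared in the fit, and it ranged from 1 (without EPSC replicate 1) to 5 (without hybrid replicate 2) with single libraries left out. Under the fold rule, thresholds of 2 in place of 3 gave 7 genes for hybrid cells against NSCs and 4 for ESCs against NSCs. They gave 2 for EPSCs against ESCs and 2 for hybrid cells against ESCs. Scaling to a sum of 1000000 gave 2 for EPSCs against NSCs. The share of all genes that pass under these alternatives is not given here, so the counts are not read as results about the 10 genes.

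Sign changes were as follows. For hybrid cells against EPSCs, Ehmt1 was at -0.0023 under scaling to a sum of 1000000, -0.033 after GC correction, and -0.018 after GC and length correction, with or without the replicate block, and Trim28 was at -0.024 under quantile normalization. For EPSCs against NSCs, Setdb1 was at -0.52 under scaling to a sum of 1000000, -0.037 under median-ratio scaling, and -0.15 under quantile normalization. For ESCs against NSCs, scaling to a sum of 1000000 gave -0.16 for Setdb1 and -0.42 for Atrx, and GC and length correction gave 0.19 for Ehmt1. For hybrid cells against NSCs, that correction gave 0.23 for Setdb1. Trim28 in EPSCs against ESCs was at 0.040 after GC correction and 0.079 after GC and length correction, and in hybrid cells against ESCs at 0.15 and 0.18. Cbx5 in hybrid cells against ESCs was at -0.039 under scaling to a sum of 1000000, -0.0078 under median-ratio scaling, -0.0059 under quantile normalization, -0.096 after GC correction, and -0.14 after GC and length correction. With single libraries left out, signs turned for hybrid cells against EPSCs in Ehmt1 (-0.10 to 0.11), Ehmt2 (-0.16 to 0.015), and Suv39h1 (-0.36 to 0.24), for EPSCs against NSCs in Cbx3 (-0.13 to 0.078), and for hybrid cells against ESCs in Cbx5 (-0.088 to 0.14) and Trim28 (-0.11 to 0.011).

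The replicate numbers did not pair the libraries across all groups. The correlation of deviations between same-numbered libraries ranged from -0.112 for ESCs and NSCs to 0.28 for EPSCs and hybrid cells. Only the latter was above the threshold of 0.1 set for pairing. With the replicate block, 3, 9, 8, 10, 8, and 9 genes passed in hybrid cells against EPSCs, hybrid cells against NSCs, EPSCs against NSCs, EPSCs against ESCs, hybrid cells against ESCs, and ESCs against NSCs, the same counts as without it. Over all tested genes, the block moved the calls for hybrid cells against EPSCs from 5881 to 6060, and fitting only the groups compared moved them to 2811.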

Other observations

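Genes known to be derepressed when this machinery is lost were read as well. Of 12 such genes, 5 were tested, all members of the Zscan4 and Tcstv families of the cleavage-stage embryo. Zscan4d was listed at 0 in both NSC libraries and was at 0.221 and 0.223 FPKM in ESCs, 3.19 and 7.18 in EPSCs, and 8.16 and 10.6 in hybrid cells. These 5 passed the filter on low values only through the EPSC and hybrid libraries, so no count or test of them is read. In EPSCs against hybrid cells, Zscan4c was at 2.34 and 6.55 against 8.86 and 11.8 FPKM. Zscan4f was at 1.95 and 6.16 against 4.88 and 5.2 FPKM. Tcstv1 was at 0.889 and 2.42 against 2.71 and 3.03 FPKM, and Tcstv3 at 1.23 and 2.08 against 1.32 and 0.394. EPSC replicate 2 was the higher EPSC library for each of them. The Zscan4 genes are near-identical copies, so the split of fragments among Zscan4c, Zscan4d, and Zscan4f is uncertain. In contrast, Magea2, Magea3, and Magea6, X-linked germline genes, were listed at 0 in all 8 libraries, and Magea5 and Magea8 were at most 0.0324 FPKM. These levels are below those of 3 fragments on a 2-kb transcript.

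The tested genes nearest to Trim28 over the 8 libraries, by the Euclidean distance of centred log2(FPKM + 1), were Ifitm2 (distance 0.111), Hspg2 (0.133), Zswim3 (0.155), Ncoa3 (0.204), and Yrdc (0.211). Ifitm2 had 550 ± 5.50 FPKM in ESCs and 129 ± 3.55 in NSCs, against 518 ± 2.696 in the EPSC libraries and 549 ± 28.6 in the hybrid libraries (SD, n = 2). The genes nearest to Cbx1 were Usp9x (0.242), Ddx18 (0.243), C77370 (0.246), Hspa8 (0.270), and Zbtb21 (0.276). Hspa8, a constitutive chaperone, had 1328 ± 31.1 FPKM in ESCs and 806 ± 10.003 in NSCs, against 2688 ± 209 in the EPSC libraries and 2773 ± 131 in the hybrid libraries (SD, n = 2). The distance describes the shape of the pattern across the 4 groups and was not tested.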
